A study of Mus musculus with 2 samples.

Results

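The loci that separate helper from killer T cells were examined for binding of Tcf1 in mature CD8 T cells: Cd4, Zbtb7b, Runx3, and the neighbouring Cd8a and Cd8b1. The mm9 mouse genome was searched in 4 windows that carry these names, and a peak was counted where its midpoint lay in a window. The windows held 5 of the 2827 Tcf1 peaks that the authors listed. Of the 4 windows, 3 held a peak, which were those of Cd4 (1 peak), Runx3 (3 peaks) and Cd8a and Cd8b1 (1 peak). The Zbtb7b window held none. For comparison, a peak was present in 8.42% of autosomal windows as long as that of Cd4, 17.1% for Runx3, 10.9% for Cd8a and Cd8b1 and 7.55% for Zbtb7b.

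The cells were splenic CD8 T cells of wild-type C57BL/6 mice, taken untouched by negative selection. In ChIP-seq, DNA crosslinked to a protein is pulled down with an antibody and sequenced. Of the 2 libraries, 1 was made with a custom rabbit antiserum against Tcf1 and 1 with pre-immune serum from a rabbit of another antibody project. Both came from the same kind of cells. Age, sex and the number of mice per library are not stated in the labels. The list gives positions and a score for the Tcf1 antiserum alone, with no reads, so depth is unknown and no peak had a replicate or a control value beside it. The scores are the authors' own, on a scale that is not stated, and they served only to rank peaks within this list. A peak list holds no expression values, so the labelled cell type could not be checked against its markers.

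T cells leave the thymus as CD4 helper cells or CD8 killer cells, and the choice rests on a pair of opposing transcription factors. Th-POK, a zinc finger protein encoded by Zbtb7b, is needed for the CD4 fate and represses the genes of the CD8 fate. Runx3, a Runt family protein, acts in CD8 cells, where it shuts off Cd4 through a silencer inside the first intron of that gene and holds down Zbtb7b. Tcf1, an HMG-box protein encoded by Tcf7, works beside its relative Lef1 in both lineages. The submitters single out the Cd4 silencer as a place that Tcf1 binds, and their paper, known from outside these files, sets Tcf1 and Lef1 upstream of Th-POK and beside Runx3 at the silencer.

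The sequence under the peaks is not shown, because no mm9 sequence was used here. RefSeq promoters (build GRCm38.p6, 250 bases before to 50 bases after a start) stood for 3 of the 5 genes, which were Zbtb7b and Runx3 with more than 1 start each and Cd8a with 1. They are shown for the locus with the most peaks, for the locus with none and for Cd8a. Capitals mark the letters ACCACA or, on the other strand, TGTGGT, a core that Runx proteins recognise. For Runx3 and Zbtb7b, the start shown is the one that held a match to these letters. The GRCm38.p6 positions were not converted to mm9, so whether a peak lay on any of these stretches was not analysed here. Runx3 (chr4:135120395-135120694, + strand), Zbtb7b (chr3:89387622-89387921, - strand) and Cd8a (chr6:71373177-71373476, + strand) read as follows, 5′ to 3′:
Runx3: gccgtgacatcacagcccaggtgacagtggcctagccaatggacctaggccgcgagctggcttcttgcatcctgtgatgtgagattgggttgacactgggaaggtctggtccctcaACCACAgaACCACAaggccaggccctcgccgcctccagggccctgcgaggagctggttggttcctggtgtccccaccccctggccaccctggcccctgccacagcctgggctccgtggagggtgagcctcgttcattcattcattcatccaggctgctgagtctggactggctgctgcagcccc
Zbtb7b: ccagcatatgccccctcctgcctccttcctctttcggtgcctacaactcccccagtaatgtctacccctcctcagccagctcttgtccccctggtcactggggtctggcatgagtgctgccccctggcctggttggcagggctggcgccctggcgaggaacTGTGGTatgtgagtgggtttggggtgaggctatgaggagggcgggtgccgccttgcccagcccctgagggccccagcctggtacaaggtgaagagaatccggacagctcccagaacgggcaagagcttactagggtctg
Cd8a: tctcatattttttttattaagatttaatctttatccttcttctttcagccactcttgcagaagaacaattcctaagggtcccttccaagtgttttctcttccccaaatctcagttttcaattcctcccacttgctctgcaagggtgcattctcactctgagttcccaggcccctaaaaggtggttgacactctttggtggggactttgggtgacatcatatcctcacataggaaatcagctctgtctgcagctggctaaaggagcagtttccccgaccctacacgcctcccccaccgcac

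The Runx3 stretch held 2 such matches, separated by a pair of bases, and the Zbtb7b stretch held 1. Of all 32851 RefSeq promoters of the same length, 16.8% held at least 1 match on either strand, and 1.81% held 2 or more. The other Runx3 start, the other Zbtb7b start and the Cd8a start held none, so 2 of the 5 stretches held a match. The Runx3 and Zbtb7b stretches shown were picked for their match. With 5 stretches, whether they differ from these shares cannot be said. The TCF/LEF core letters CTTTGA and CTTTGT, searched on both strands, were in none of the 5 promoter stretches of these 3 genes. Of all promoters, 31.2% held 1 or the other, and 5 stretches are too few to say whether the count differs from that share. The content of G and C was 59.7% and 63.3% at Zbtb7b, 63.7% and 77.3% at Runx3 and 46.7% at Cd8a. The median over all promoters was 52.7%, and the share was not matched for this content. A match is only a run of letters, and the absence of one says nothing of binding elsewhere in the gene.

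A single Tcf1 peak lay in the Cd4 window, and it was the highest scoring of the 5. Cd4 encodes the coreceptor that binds class II major histocompatibility molecules and is switched off in CD8 T cells. The window covered 90 kb of chromosome 6 (mm9 chr6:124780000-124870000). The peak was at mm9 chr6:124835984-124836362, 379 bp wide, with a score of 18.03. This score was above 94.1% of the list, and 165 of the 2827 peaks scored higher. On chromosome 6 it ranked 9 of 150.

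The Cd4 peak had no other peak in its window. The nearest other peak was 336 kb away from midpoint to midpoint, farther than the nearest neighbour of 66.3% of peaks. The peaks on either side of the window scored lower. The one before it scored 7.04 and lay 436 kb from the window's edge, and the one after it scored 9.34 and lay 302 kb away. The nearest peak at or above the list's median score was 3140 kb from the Cd4 peak. That limit keeps only 1423 of the 2827 peaks, and this distance was not ranked against those of other peaks. Within 1 Mb of the window's centre there were 4 peaks, a count that 21.6% of autosomal windows of 2 Mb reached. None of them scored above the Cd4 peak.

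Whether the Cd4 peak covers the silencer was not analysed here, since placing it within the gene needs mm9 annotation. In the RefSeq gene order, Cd4 lies between Gpr162 and Lag3, which encodes an inhibitory receptor related to Cd4. A window named for Cd4 can therefore also take in sequence of its neighbours, and the peak was assigned to the window and not to a gene. Of 26415 autosomal windows of the same length laid end to end, 8.42% held at least 1 peak. Among the 2223 of these that held a peak, 153 (6.88%) had a peak scoring at least as high as that of Cd4.

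**Figure D1:**
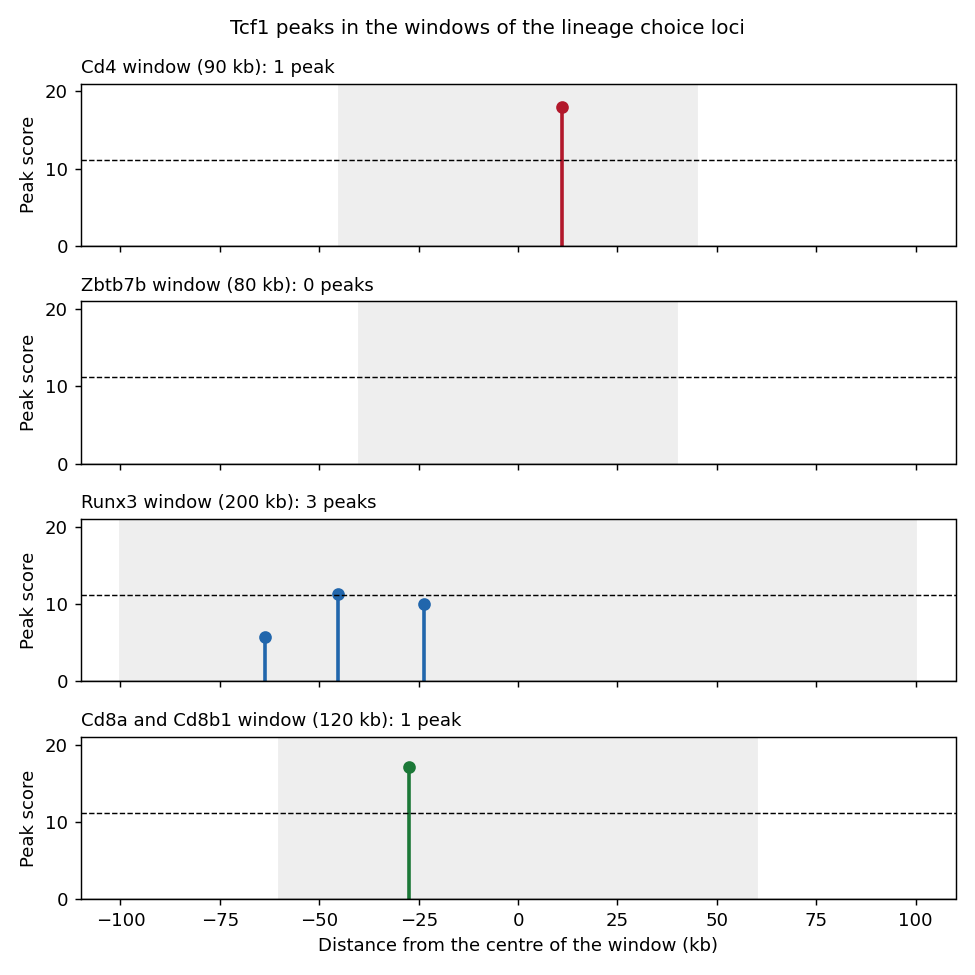
Tcf1 peaks in the 4 windows, with the distance from the centre of the window (kb) on the x axis and the authors' score on the y axis. Grey marks the window, each stem is 1 peak, and the dashed line is the median score of the list (11.17); the Cd4 peak (18.03) and the Cd8a and Cd8b1 peak (17.13) stand above it, the Zbtb7b window is empty, and the 3 Runx3 peaks lie in the first part of their window.

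The Zbtb7b window had no Tcf1 peak. It covered 80 kb of chromosome 3 (mm9 chr3:89150000-89230000). No interval touched the window, and none was added when it was widened by 50 kb on each side. The nearest peak before it was at mm9 chr3:88313816-88314383, 836 kb from its edge, with a score of 5.85. The nearest after it was at mm9 chr3:89667986-89668335, 438 kb from its edge, with a score of 11.67. The window thus sat in a stretch of 1354 kb between neighbouring peaks.

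An empty window of this size was the usual case. Of 29716 autosomal windows of 80 kb, 7.55% held a peak and 92.5% held none. The lack of one at Zbtb7b does not set it apart from these windows. They were laid over sequence with and without genes, so whether Zbtb7b differs from gene-rich windows was not analysed here. The median distance between neighbouring autosomal peaks was 432 kb, and 584 of 2648 such distances (22.1%) were longer than the one around the Zbtb7b window. A longer distance is more likely to hold any given window, so this share does not say whether the stretch is long for a chosen position. The list is headed as strong peaks and its threshold is not stated, so weaker binding at Zbtb7b was not measured. The cells were mature CD8 T cells, and thymocytes, in which the lineage is chosen, were not profiled in the 2 libraries. Zbtb7b lies between Dcst2 and Lenep in the RefSeq order.

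Runx3 carried the most peaks of the 4 windows. Its window was also the longest, covering 200 kb of chromosome 4 (mm9 chr4:134600000-134800000). The first peak was at mm9 chr4:134636225-134636530, 306 bp wide with a score of 5.71. The second was at mm9 chr4:134654379-134654822, 444 bp wide with a score of 11.31. The third was at mm9 chr4:134676261-134676637, 377 bp wide with a score of 10.05. All 3 lay before the centre of the window, at 63.6, 45.4 and 23.6 kb from it.

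The Runx3 peaks formed a row. The first and the second were 18.2 kb apart, the second and the third 21.8 kb, and the row spanned 40.1 kb from the first midpoint to the last. A neighbour closer than 18.2 kb was found for 21.1% of all peaks. The next peak beyond the window, at mm9 chr4:134846222-134846514 with a score of 8.51, lay 46.4 kb from its edge. The last one before the window scored higher, at 18.06, and lay 247 kb from the edge.

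The Runx3 peaks had middling or low scores. The second scored above 56.7% of the list and ranked 62 of the 148 peaks of chromosome 4. The third scored above 38.9% and ranked 88. The first scored above only 3.86% of the list and ranked 138. The locus thus had more peaks than the Cd4 window, and each of them scored below the Cd4 peak.

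Of 11880 autosomal windows of 200 kb, 17.1% held at least 1 peak, and 105 (0.884%) held 3 or more. The Runx3 window was placed by position and is not one of these, so only its count of 3 is set beside them. That count rests on peaks of middling and low score: at or above the median score of the list, 1 of the 3 was left. The same-length windows tile all autosomal sequence between the first and last peak of each chromosome, genes or not, and were not matched to gene-rich regions. Within 1 Mb of the centre of the Runx3 window there were 10 peaks, against 4 around Cd4, 4 around Zbtb7b and 2 around Cd8a and Cd8b1. Autosomal windows of 2 Mb laid end to end (1179) held a mean of 2.21 peaks and a median of 2. At least 10 peaks, the Runx3 count, were in 6 of them (0.509%), at least 4 in 21.6% and at least 2 in 54.1%. In the RefSeq order Runx3 lies between Syf2 and Clic4, and which of the 3 peaks fall inside Runx3 was not analysed here.

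**Figure D2:**
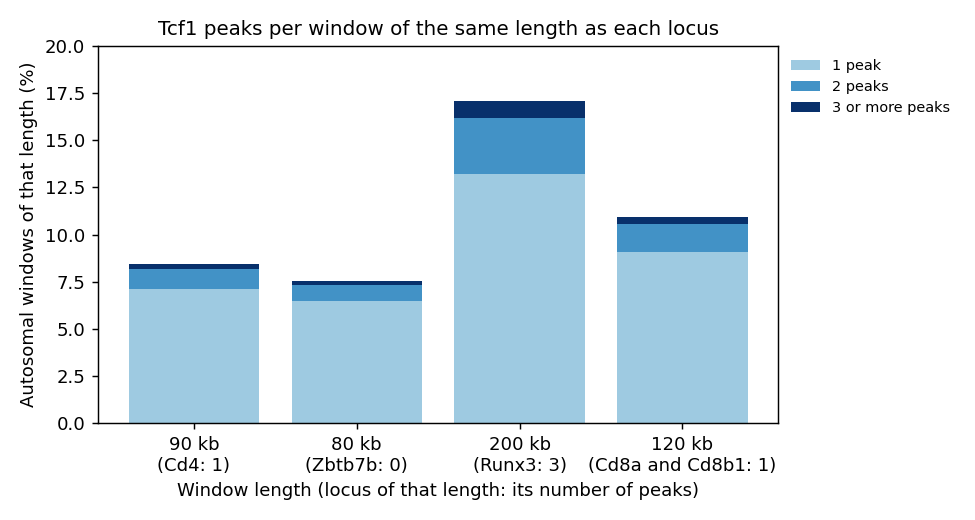
Autosomal windows of the same length as each locus (x axis, with the number of peaks at the locus) and the percentage of them that held 1, 2, or 3 or more Tcf1 peaks (y axis); windows without a peak are not drawn. Between 7.55% (80 kb) and 17.1% (200 kb) of windows held a peak, and 0.884% of the 200 kb windows held 3 or more, the count in the Runx3 window.

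One Tcf1 peak lay in the window of the CD8 coreceptor genes, and it was the broadest of the 5. Cd8a and Cd8b1 encode the chains of the coreceptor that binds class I major histocompatibility molecules, and they are neighbours in the RefSeq order, Cd8b1 before Cd8a. The window covered 120 kb of chromosome 6 (mm9 chr6:71240000-71360000). The peak was at mm9 chr6:71272184-71272844, 661 bp wide, with a score of 17.13. It scored above 91.4% of the list and ranked 14 of the 150 peaks of chromosome 6, a few places below the Cd4 peak on the same chromosome.

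The Cd8a and Cd8b1 peak joined a large width to a high score. It was wider than 98.1% of the list. The 54 peaks at least as wide had a median score of 6.54, and 3 of them (5.56%, itself included) scored at least as high. The nearest other peak was 497 kb away, at mm9 chr6:70775020-70775375 with a score of 21.34, and the next on the far side was 1547 kb beyond the window's edge with a score of 6.43.

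Of 19808 autosomal windows of 120 kb, 10.9% held a peak, and among the 2163 that did, 221 (10.2%) had one scoring at least as high as that of Cd8a and Cd8b1. The peak lay 32.5 kb after the first base of the window. Whether it belongs to Cd8b1, to Cd8a or to sequence between them was not analysed here, and enhancers that are known in this region from other work were not mapped onto it.

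Set side by side, the coreceptor windows each held 1 peak of high score, and Runx3 held a row of lower-scoring ones. The nearest other peak was 336 kb from the Cd4 peak and 497 kb from the Cd8a and Cd8b1 peak. The Cd4 score was above 94.1% of the list and the Cd8a and Cd8b1 score above 91.4%. The Runx3 scores were above 3.86%, 56.7% and 38.9%. The list has no error for a single score, so the difference between 18.03 at Cd4 and 17.13 at Cd8a and Cd8b1 was not tested. All 5 peaks were wider than the median of the list, 276 bp, and their own median width was 379 bp. The median score of the 5 was 11.31, against 11.17 over all peaks.

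**Figure D3:**
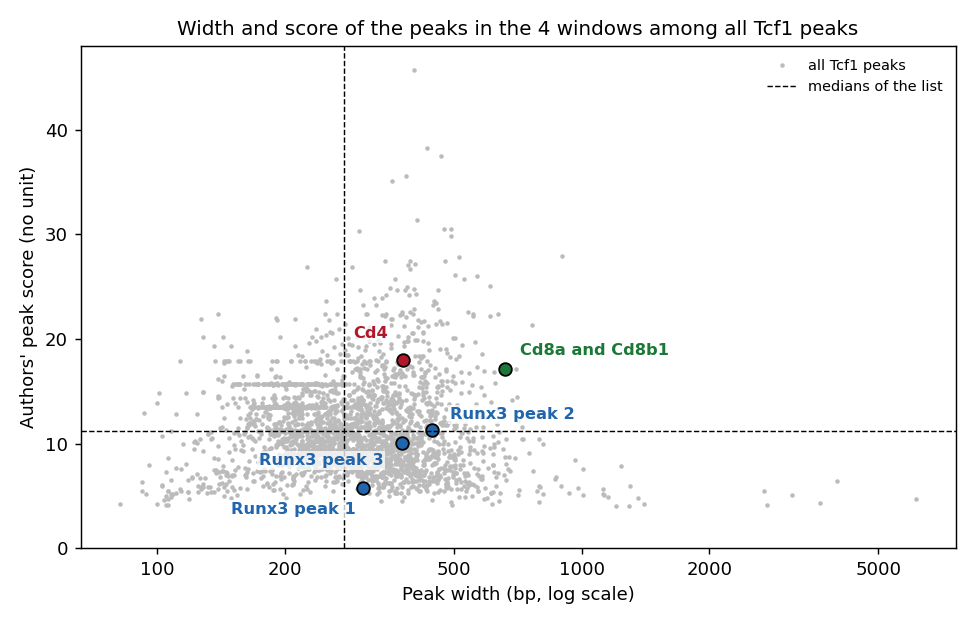
Width (x axis, bp, log scale) and authors' score (y axis, no unit) of all 2827 Tcf1 peaks (grey) and of the 5 peaks in the windows (coloured); dashed lines are the medians of the list (276 bp and 11.17). The Cd4 peak and the Cd8a and Cd8b1 peak lie above the median score, the latter far to the right at 661 bp, and the Runx3 peaks lie near or below the median score.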

How the data were processed

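Tcf1 ChIP-seq peaks of splenic CD8 T cells were used as deposited. Build mm9, MACS 1.4.1, Bowtie 0.12.5 and CASAVA 1.8 are listed, without role or setting, per the submitters' processing notes. The authors deposited 1 score per peak interval, under a track line naming strong peaks; per the file headers, nothing more is stated, and the use of the control library, the threshold and the treatment of duplicate reads are not given in the sources used here.

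Positions were converted to count from 1. Peaks were assigned to 4 named mm9 windows by midpoint, and ranks, widths and midpoint distances were computed against the 2827 peaks. Same-length windows were laid end to end on the 19 autosomes between first and last peak. With 1 library per antiserum, no test was made. The windows were not checked against mm9 annotation; the GRCm38.p6 RefSeq table, in which 5 of 5 genes matched, gave names, gene order and promoters only. Named peaks were those in the windows and the nearest outside them. The members, windows and lists were chosen with earlier results of these data known. Other genes of lineage choice needed mm9 annotation and were not analysed here. Counting was tested on simulated lists. Software was Matplotlib 3.10.9, SciPy 1.17.1, pandas 2.3.3 and NumPy 2.4.6 under Python 3.11.15.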

Additional observations from a re-analysis of the deposited data

How the results depend on the processing

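Of 48 alternatives to 23 values, 40 stayed within 1.5 times a count or distance, or within the 95% exact binomial interval of a share. With only peaks that reached the median score, the Runx3 window held 1 peak in place of 3, and the share of windows with a peak fell to 4.75% at 90 kb, 4.27% at 80 kb, 10.1% at 200 kb and 6.23% at 120 kb, which follows from there being fewer peaks (1423). Neighbours at or above the median score lay 3140 kb from the Cd4 peak and 302 kb from the second Runx3 peak. Distances under this limit were not ranked against those of other peaks. Among peaks of up to 500 bp the first Runx3 peak scored above 2.78%. The counts at Cd4 (1), Zbtb7b (0) and Cd8a and Cd8b1 (1) were the same under any overlap and the median score limit. They also stayed in windows widened by 50 kb or narrowed by 10 kb. None of these settings could have moved them. The closest peak outside these windows was 302 kb from an edge. The peaks inside scored above the median and lay more than 10 kb from an edge, and an empty window has none to lose. These alternatives are among the 40 and do not show that the counts are robust. The widened Runx3 window held 4. Motif matches in peaks and placement by transcript were not run, as no mm9 sequence or annotation was used. No paired analysis was possible because there is only 1 library of each kind. Depth is unknown, so binding below the list's threshold was not measured in any window.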
